A study of Rattus norvegicus with 30 samples.

Results

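The EGR and NR4A immediate early factors are 7 genes, Egr1, Egr2, Egr3 and Egr4, and Nr4a1, Nr4a2 and Nr4a3. Their members were taken as all probe sets other than array controls whose annotation gives 1 of these symbols and no other, which gave 12 of 31042 probe sets, for 7 of the 14217 genes so named. They were followed in testis RNA from Fischer rats, males aged 28 days after birth, that received mono-(2-ethylhexyl) phthalate (MEHP) once by oral gavage, 1 g/kg in corn oil, or corn oil alone. MEHP is the metabolite through which a common phthalate plasticizer acts on the testis. Testes were taken 1, 2, 3, 6 or 12 h later, with 3 MEHP and 3 corn oil animals at each time, 30 animals and 30 arrays in all. The comparison at each time asks how these genes differ after MEHP from animals given the vehicle alone.

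Immediate early genes are transcribed within minutes of a signal reaching a cell, with no need for new protein, because the factors that switch them on already sit in the cell. The EGR proteins are zinc finger transcription factors that bind GC-rich DNA, and the corepressors NAB1 and NAB2 hold them in check. The NR4A proteins are nuclear receptors with no established hormone ligand, so their activity follows their amount; in Leydig cells, the androgen makers of the testis, Nr4a1 is induced by luteinizing hormone through cyclic AMP. Serum response factor and its partners, acted on by ERK kinases, drive EGR genes through CArG boxes, and CREB drives both families through cyclic AMP response elements (CREs).

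A value below is a signal, the intensity given for a probe set on 1 array in arbitrary units, scaled by the submitters to a common 2% trimmed mean (500.1 to 500.2). The median signal of an array ran from 117.2 to 165.4. Signals of different probe sets are not on 1 scale, so levels are compared between animals and not between genes. A difference is the MEHP mean less the corn oil mean of that time, on the scale log2(signal + 16), with its standard error. Its p comes from 1 limma model of all 30 arrays, adjusted by Benjamini-Hochberg over the 21190 probe sets tested, and a call is an adjusted p under 0.05. Tested probe sets reached the 40th percentile of an array (66.71 to 93.61) on at least 3 arrays. Of the 12 member probe sets 8 passed, for 6 of the 7 genes; where a gene had several, its leading probe set is the one of highest mean.

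Some properties of the arrays and labels bear on the results. At 2 h the bacterial spike controls averaged 11.77 ± 0.494 (SD, n = 3, log2) on the corn oil arrays and 11.03 ± 0.166 on the MEHP arrays. Hexokinase, a control gene probed near both its ends to show how whole the RNA is, had 3'-end over 5'-end log2 ratios of 0.494 ± 0.0435 and 0.764 ± 0.0155 there. Corn oil animal 7 of 2 h is corn oil by its title and treatment field, but a digit in its description code is the one that MEHP animals carry. Animals of 1, 2 and 3 h were dosed in the early afternoon and those of 6 and 12 h in the morning, so time after dosing and time of day cannot be told apart. Markers of Sertoli and Leydig cells were measured, 8 of 10 and 6 of 6 of them above the filter, as the label of testis requires, and 2 epididymis markers lay below it. The labels give 1 animal per array and no litter.

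The promoters of 5 members are held in the RefSeq table of build GRCr8. Those of 4 members that were higher after MEHP by the tests given later, for Egr2 as a description only, are shown here. They carry the letters read by the factors that induce immediate early genes. Each run is the 250 bases before the annotated start site, 5′ to 3′ on the gene's strand. Egr1 is read from chr18:26736828-26737077 (+), Egr2 from chr20:21054442-21054691 (-), Egr4 from chr4:119607818-119608067 (-) and Nr4a1 from chr7:134259888-134260137 (+). Capitals mark CArG boxes and the CRE core TGACG, which reads CGTCA on the other strand.
Egr1: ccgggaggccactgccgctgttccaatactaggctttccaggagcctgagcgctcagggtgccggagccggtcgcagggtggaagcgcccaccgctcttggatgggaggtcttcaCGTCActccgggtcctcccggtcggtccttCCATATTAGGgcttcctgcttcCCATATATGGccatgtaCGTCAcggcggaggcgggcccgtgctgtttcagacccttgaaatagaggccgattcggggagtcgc
Egr2: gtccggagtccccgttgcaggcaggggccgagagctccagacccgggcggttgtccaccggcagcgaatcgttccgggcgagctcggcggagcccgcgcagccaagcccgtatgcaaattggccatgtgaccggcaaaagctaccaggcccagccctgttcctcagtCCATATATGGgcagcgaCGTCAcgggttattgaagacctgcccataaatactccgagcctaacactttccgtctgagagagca
Egr4: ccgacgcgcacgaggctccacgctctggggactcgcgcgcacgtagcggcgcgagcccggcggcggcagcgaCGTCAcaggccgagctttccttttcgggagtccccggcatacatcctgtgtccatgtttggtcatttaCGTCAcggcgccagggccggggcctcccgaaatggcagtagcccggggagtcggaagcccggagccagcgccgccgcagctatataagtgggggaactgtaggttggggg
Nr4a1: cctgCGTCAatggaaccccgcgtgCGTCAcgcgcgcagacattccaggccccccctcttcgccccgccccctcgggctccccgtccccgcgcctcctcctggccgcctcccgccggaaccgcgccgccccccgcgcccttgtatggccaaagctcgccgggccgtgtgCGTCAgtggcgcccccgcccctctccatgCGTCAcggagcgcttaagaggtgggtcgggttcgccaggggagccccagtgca

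CArG boxes, searched on both strands in windows from 250 bases before to 50 after the start, were present in the Egr1 window at -105 to -96 and -83 to -74 and in the Egr2 window at -83 to -74. They were in none of the Egr4, Nr4a1 and Nr4a2 windows, and 1.64% of all 33469 promoter windows held 1. The CRE core TGACG stood at -135 to -131 and -66 to -62 in Egr1, at -66 to -62 in Egr2 and at -178 to -174 and -110 to -106 in Egr4. In Egr1 and Egr2 a CArG box and a CRE core thus lie at the same pair of positions. The Nr4a1 window held 4 CRE cores, starting at -246, -226, -82 and -53, and that of Nr4a2 held 1, at -8 to -4. The core is in 21.2% of all windows, a CArG box together with a core in 0.272%, and 3 or more cores in 1.11%. Nr4a1 also held an EGR site, GCGGGGGCG, at -73 to -65, which overlaps a match to the Sp1 letters GGGCGG at -68 to -63; the EGR site is in 2.73% of windows. The full CRE TGACGTCA, the AP-1 letters TGANTCA, the EGR site GCGTGGGCG and the NR4A site AAAGGTCA were in none of the 5 member windows, against 1.83%, 7.33%, 0.544% and 1.43% of all windows. These matches describe letters only, and no binding was measured.

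**Figure D1:**
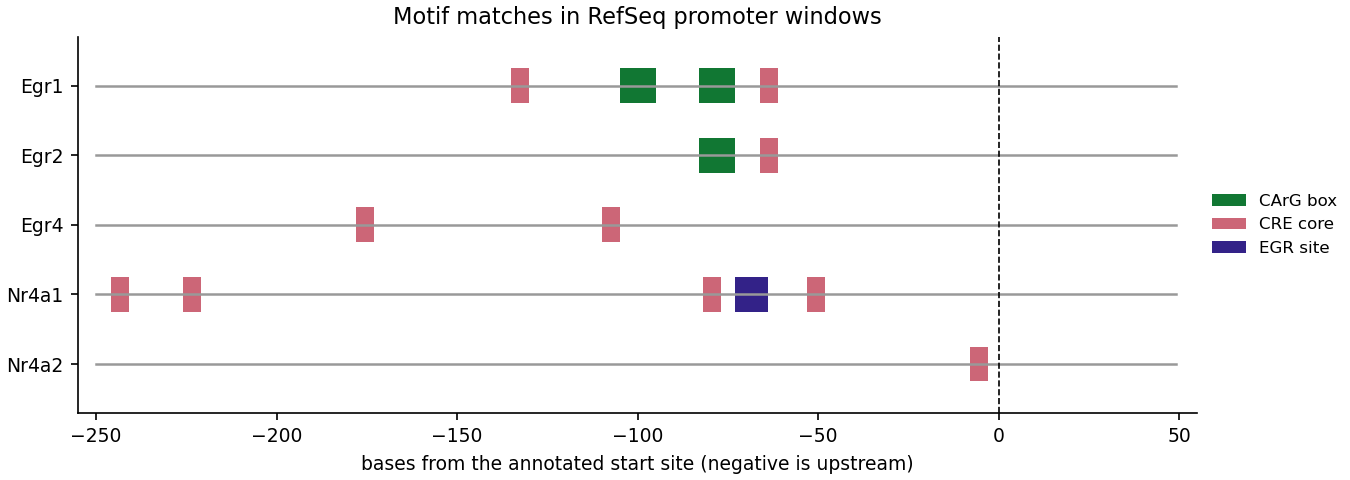
Positions of CArG boxes (green), CRE cores (pink) and the EGR site (blue) in the promoter windows of 5 member genes, in bases from the annotated start site (dashed line). The CArG box and CRE core at -83 to -74 and -66 to -62 are placed alike in Egr1 and Egr2, and Nr4a1 holds 4 CRE cores.

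Among the EGR genes, Egr1 was higher after MEHP in every animal at every time and passed the test from 2 h on. Egr4 rose at 6 h, while Egr3 did not pass at any time. Egr2 was higher at 12 h, given as a description because it entered the tests through its MEHP arrays alone. Among the NR4A genes, Nr4a1 rose at 12 h, and Nr4a3 passed at 12 h by 1 of its 3 probe sets but not by the leading one. The probe set that passed was tested because of its MEHP signals, so its pass is a description only. Nr4a2 stayed below the filter. No member fell past the threshold.

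Egr1 (probe set 1368321_at) encodes the family's best known member, a factor that growth factors, stress and hormones induce in most tissues. Its corn oil signals were 349, 256 and 276 at 1 h (animals 40, 41 and 42), 182, 232 and 389 at 2 h (7, 47 and 48), and 139, 270 and 136 at 3 h (52, 53 and 54). They were 287, 171 and 138 at 6 h (34, 35 and 36) and 168, 180 and 292 at 12 h (60, 61 and 62). All 15 thus lay between 136 and 389, and the 5 times did not differ among corn oil animals (limma F test, adjusted p = 0.668). After MEHP the signals were 1023, 743 and 777 at 1 h (animals 37, 38 and 39), 2610, 2020 and 2115 at 2 h (43, 44 and 45), and 1811, 1160 and 513 at 3 h (49, 50 and 51). They were 600, 1957 and 2508 at 6 h (31, 32 and 33) and 1909, 1802 and 3549 at 12 h (57, 58 and 59). The lowest MEHP animal of any time, 51 at 513, was above the highest corn oil animal of any time, 48 at 389. The 2 h MEHP animals lay close together, whereas those of 3 h and 6 h spread several-fold.

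The Egr1 difference was 1.48 ± 0.44 at 1 h, which did not pass (adjusted p = 0.941), although the groups did not overlap. All 3 MEHP animals lay above all 3 corn oil animals in 9.02% of tested probe sets at that time, and 0% were called. Egr1 then rose 8.31-fold at 2 h (3.06 ± 0.44, adjusted p = 0.00167), 5.53-fold at 3 h (2.47, adjusted p = 0.0218), 7.05-fold at 6 h (2.82, adjusted p = 0.00222) and 10.4-fold at 12 h (3.38, adjusted p = 1.02e-05). From 2 h to 12 h the shares of tested probe sets called higher were 0.222%, 0.0425%, 0.179% and 5.06%, so Egr1 was 1 of few genes called before 12 h and 1 of many at 12 h. The RNA was of whole testis, in which a change in the number of expressing cells and a change in RNA per cell cannot be told apart.

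Across the times, Egr1 passed the test of a difference at any time (adjusted p = 2.46e-07), and the test of whether the MEHP effect differed between times gave adjusted p = 0.306. Ordered by their mean log2 value the MEHP groups ran 1 h, 3 h, 6 h, 2 h and 12 h. The 12 h animals were above those of 1 h (1.44 ± 0.44, adjusted p = 0.0334, a test that 11% of probe sets passed). No pair of neighbours in the order passed, in tests with 0.0142%, 0%, 0.00472% and 13.1% of probe sets called. Without corn oil animal 7, Egr1 at 2 h had a difference of 2.83 (adjusted p = 0.0116). With all animals kept and the spike level in the model, the difference was 3.32 and did not pass (adjusted p = 0.0502). Leaving out 1 of corn oil animals 52 and 54 or MEHP animals 49 and 50 ended the 3 h call, with adjusted p of 0.212, 0.0502, 0.326 and 0.143. Fits made separately for each time also ended the calls for Egr1 at 3 h (adjusted p = 0.71) and Egr1 at 6 h (adjusted p = 0.251), and the gavage volume as a covariate ended that for Egr1 at 3 h (2.28, adjusted p = 0.0754).

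**Figure D2:**
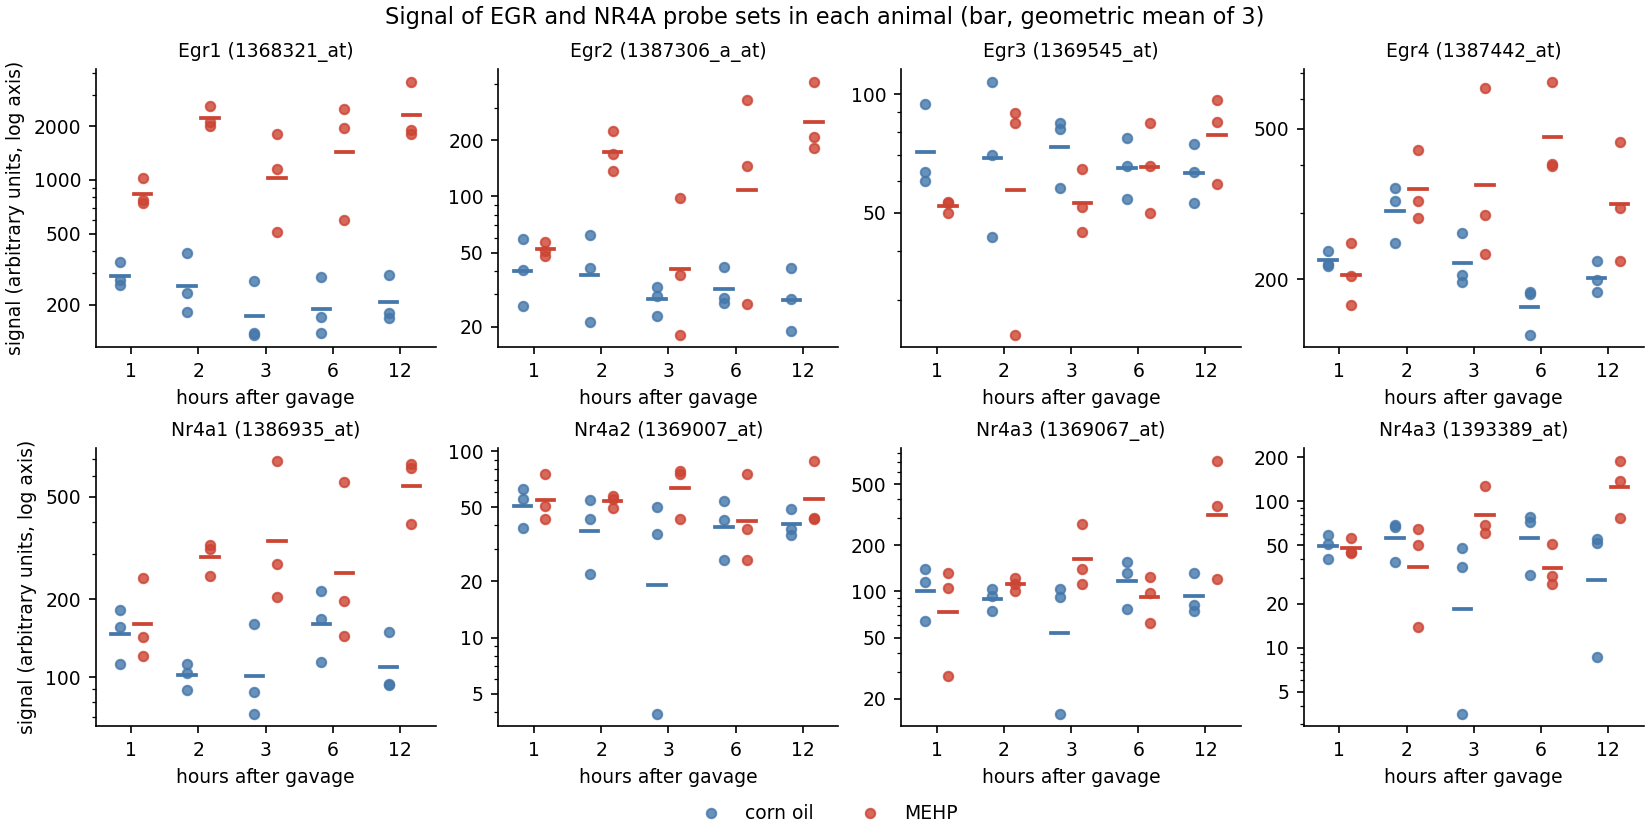
Signal of 8 member probe sets in each of the 30 animals (log axis, arbitrary units) against hours after gavage, corn oil in blue and MEHP in red, with bars at the geometric mean of 3 animals; the axes differ between panels. Egr1 is apart at all 5 times, Egr2 is apart at 2 h and 12 h, Nr4a1 at 2 h, 3 h and 12 h, and Egr4 at 6 h.

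Egr2 (1387306_a_at), also called Krox20, is known for hindbrain patterning and for myelination by Schwann cells. All 15 of its corn oil signals, 18.8 to 61.8 with a median of 29.3, lay under the 40th percentile of their arrays, so the size of a fold depends on the added 16. After MEHP the signals were 48.1, 51 and 57.2 at 1 h (animals 37, 38 and 39), 169, 137 and 225 at 2 h (43, 44 and 45), and 98.5, 37.7 and 18.1 at 3 h (49, 50 and 51). They were 26.5, 147 and 331 at 6 h (31, 32 and 33) and 209, 183 and 412 at 12 h (57, 58 and 59). The 2 h and 12 h animals stood clear of the corn oil animals, and those of 3 h and 6 h ranged from the corn oil level to far above it.

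By the test, Egr2 rose at 12 h by 2.59 ± 0.50 (adjusted p = 0.00109). At the other times the differences were 0.28 at 1 h (adjusted p = 0.951), 1.79 at 2 h (adjusted p = 0.0907), 0.43 at 3 h (adjusted p = 0.773) and 1.48 at 6 h (adjusted p = 0.52). Set against all 15 corn oil animals the 2 h difference was 1.95 and passed (adjusted p = 0.0345). Since Egr2 entered the tests through 9 MEHP arrays alone, a difference between its groups was in part a condition of being tested, and its tests are given as a description. Among its MEHP groups the limma F test between times gave adjusted p = 0.0137, a test that 9.28% of probe sets passed. Its 12 h animals were above those of 1 h (1.98 ± 0.50, adjusted p = 0.0106) and of 3 h (2.17, adjusted p = 0.00661), tests that 11% and 8.1% of probe sets passed. The other probe set of Egr2, 1398266_a_at, was below the filter and untested. At 12 h it read 73.7, 24.6 and 50.7 after MEHP against 4.54, 5.54 and 8.83 after corn oil, also without overlap.

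Egr4 (1387442_at) is the member with a known part in spermatogenesis, as male mice without it are infertile. Its corn oil signals were 186, 182 and 143 at 6 h (animals 34, 35 and 36), and over all times ran from 143 to 348 with a median of 216. The MEHP signals at 6 h were 402, 398 and 664 (31, 32 and 33), each above the highest corn oil animal of any time. At 3 h animal 49 stood at 641, with 295 and 234 in animals 50 and 51 and 205, 197 and 265 after corn oil. At 12 h the MEHP signals were 309, 224 and 461 against 185, 199 and 224.

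Egr4 rose 2.65-fold at 6 h (1.41 ± 0.27, adjusted p = 0.0222). It had -0.12 at 1 h (adjusted p = 0.965), 0.18 at 2 h (adjusted p = 0.829), 0.65 at 3 h (adjusted p = 0.482) and 0.61 at 12 h (adjusted p = 0.2), with overlapping groups at each of these 4 times. The test of any time passed (adjusted p = 0.00955), and the test of a difference between times in the effect did not (adjusted p = 0.133). The 6 h call was lost without any of corn oil animals 34, 35 and 36 or MEHP animals 32 and 33 (adjusted p up to 0.198). It was also lost in separate fits for each time (adjusted p = 0.14) and with the RNA integrity number as a covariate (adjusted p = 0.0964), a fit that drops animal 35, which has none. At 6 h the summed signals of 6 Leydig markers were 7215 to 10280 after MEHP against 14220 to 14580, and those of 4 endothelial markers 408.5 to 445.7 against 520.7 to 555.8, with 1 of 6 Leydig markers, Star, called lower. Their part in the Egr4 result was not tested. Its other probe set, 1375784_at, was below the filter, with means of 41.3 after MEHP and 27.8 after corn oil at 6 h.

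Egr3 (1369545_at), needed for muscle spindles and induced by neural activity and antigen receptors, was near the filter in both groups. Its signals ran from 43.2 to 107 (median 65.6) after corn oil and from 24.5 to 96.8 (median 59) after MEHP. Differences were -0.36, -0.18, -0.38, 0.01 and 0.26 at 1, 2, 3, 6 and 12 h, each ± 0.30, with adjusted p from 0.658 to 0.999. At 1 h the MEHP animals, 49.8, 53.1 and 53, all lay below the corn oil animals, 94.2, 60.2 and 63.3, as in 10.3% of tested probe sets.

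Nr4a1 (1386935_at), also called Nur77, is the NR4A gene best known from Leydig cells and lymphocytes. Its corn oil signals were 157, 112 and 181 at 1 h (animals 40, 41 and 42), 104, 89.5 and 113 at 2 h (7, 47 and 48), and 87.5, 161 and 72.2 at 3 h (52, 53 and 54). The later groups read 216, 168 and 114 at 6 h (34, 35 and 36) and 94.4, 93.4 and 149 at 12 h (60, 61 and 62). None of the 15 was above 216. After MEHP they were 242, 143 and 120 at 1 h (animals 37, 38 and 39), 247, 325 and 314 at 2 h (43, 44 and 45), and 275, 689 and 205 at 3 h (49, 50 and 51). At 6 h they were 145, 197 and 569 (31, 32 and 33), and at 12 h 644, 391 and 668 (57, 58 and 59). The groups were apart at 2, 3 and 12 h and overlapped at 1 and 6 h, where animal 33 alone was high.

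The 12 h difference of Nr4a1 was 2.18 ± 0.41, a 4.52-fold rise (adjusted p = 0.000711). The 2 h and 3 h differences, 1.39 (adjusted p = 0.106) and 1.60 (adjusted p = 0.325), did not pass, nor did 0.12 at 1 h (adjusted p = 0.978) and 0.62 at 6 h (adjusted p = 0.999). All MEHP animals above all corn oil animals was the pattern of 7.33% of tested probe sets at 2 h, 6.53% at 3 h and 10.2% at 12 h. Among MEHP animals, those of 12 h were above those of 1 h by 1.68 ± 0.41 (adjusted p = 0.00735). The test of a difference between times in the MEHP effect gave adjusted p = 0.163.

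Nr4a3, also called NOR1, can stand in for Nr4a1 in some of its actions, and it had 3 tested probe sets. On the leading one, 1369067_at, the 12 h MEHP signals were 707, 121 and 362 (animals 57, 58 and 59) against 81, 74.8 and 132 after corn oil (60, 61 and 62), so animal 58 lay within the corn oil range. Its difference of 1.62 ± 0.52 had adjusted p = 0.0525, and passed against all 15 corn oil animals (1.66, adjusted p = 0.00456) or without animal 58 (2.26, adjusted p = 0.00343). On 1393389_at the same animals read 189, 76.9 and 136 against 52.2, 8.57 and 55.5, without overlap, and this probe set passed (1.53 ± 0.45, adjusted p = 0.0325). That call ended when corn oil animal 61, MEHP animal 57 or MEHP animal 59 was left out, with adjusted p of 0.223, 0.193 and 0.0734. It also ended with a pseudocount of 1 (2.05, adjusted p = 0.0851) and in separate fits (adjusted p = 0.223). This probe set reached the filter on 1 corn oil array and 4 MEHP arrays, so it too was tested because of its MEHP signals. On 1369217_at, with 90.4, 62.6 and 182 against 57.4, 38.7 and 43.9, the difference was 0.93 ± 0.36 (adjusted p = 0.125). It reached the filter on 2 corn oil arrays and 6 MEHP arrays, and so was also tested because of its MEHP signals. The tests of 1393389_at and 1369217_at are therefore given as a description.

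At 3 h Nr4a3 had the same sign on its 3 probe sets without passing, at 1.27 (adjusted p = 0.48), 1.28 (adjusted p = 0.477) and 0.29 (adjusted p = 0.792). Its leading signals there were 112, 275 and 139 after MEHP and 16, 104 and 91.6 after corn oil, with corn oil animal 52 far below the others. At 6 h the 3 differences were -0.30, -0.51 and -0.04, with adjusted p = 0.999 for each. MEHP animals of 12 h were above those of 1 h on the leading probe set (1.86 ± 0.52, adjusted p = 0.0204).

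Nr4a2, known for its part in dopamine neurons, had both its probe sets below the filter. On 1369007_at the signals ran from 3.91 to 62.4 after corn oil and from 26.1 to 88.6 after MEHP, with 1 of 15 MEHP arrays and 0 of 15 corn oil arrays at or above the 40th percentile. In a fit without the filter its differences were 0.08, 0.37, 0.97, 0.10 and 0.34 at the 5 times, with adjusted p of 0.99, 0.766, 0.554, 1 and 0.723. Its other probe set, 1387410_at, stayed between 1.97 and 31.6 in all animals.

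**Figure D3:**
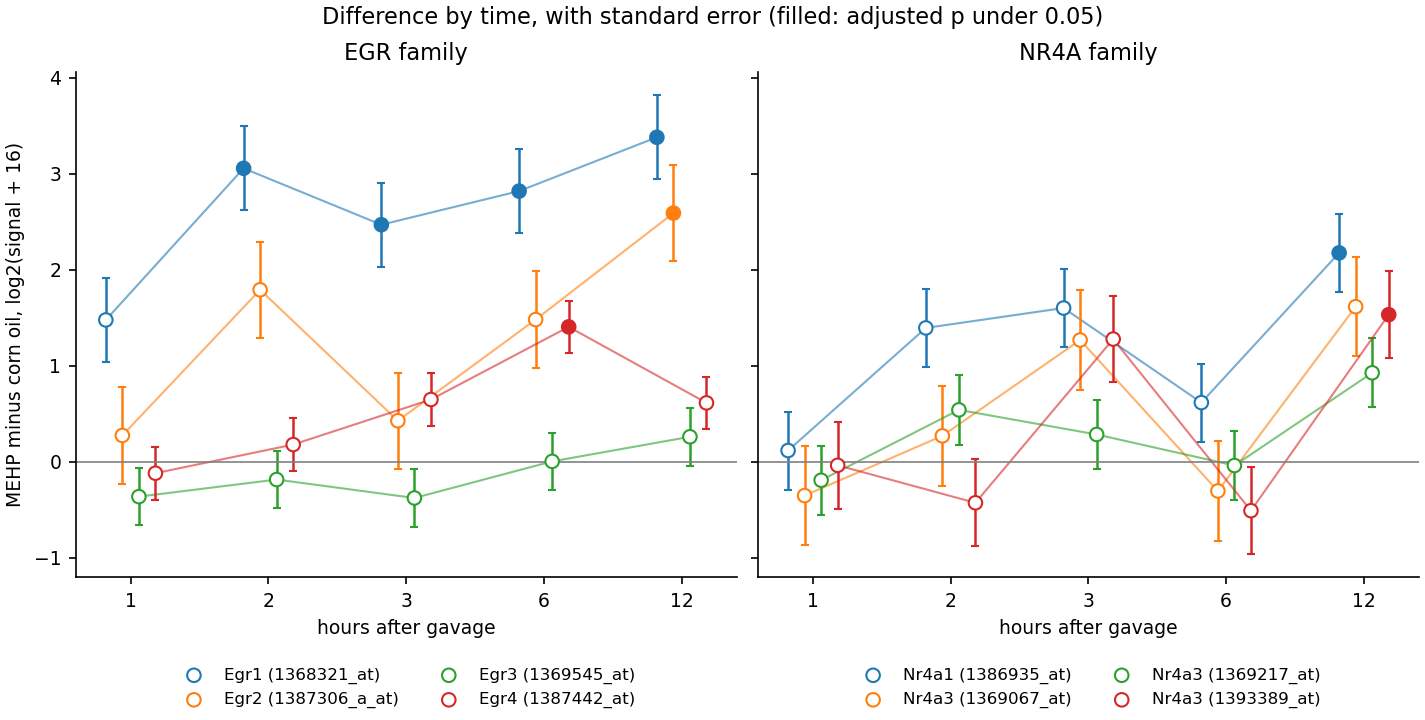
Difference between MEHP and corn oil in log2(signal + 16), with its standard error, for the 8 tested member probe sets at each time, EGR genes on the left and NR4A genes on the right; filled points have an adjusted p under 0.05. Egr1 is filled from 2 h on, Egr4 at 6 h, and Egr2, Nr4a1 and 1 probe set of Nr4a3 at 12 h. Egr2 and that probe set of Nr4a3 were tested because of their MEHP signals, and their calls are a description only.

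Counted over the 6 genes tested, by leading probe set, limma called 0, 1, 1, 2 and 3 at the 5 successive times, all higher. Of all probe sets tested, 0%, 0.222%, 0.0425%, 0.179% and 5.06% were called higher. Egr2 is among the 3 of 12 h, and the counts that follow leave it out and cover the 5 genes that reached the filter in corn oil arrays alone, Egr1, Egr3, Egr4, Nr4a1 and Nr4a3. Of these limma called 0, 1, 1, 2 and 2 higher, beside the shares just given. It called 0 lower, where 0%, 0.439%, 0%, 0.0236% and 3.68% of probe sets were called lower. At an unadjusted p under 0.05 the counts were 1, 2, 4, 2 and 4, beside 1.08%, 5.91%, 7.34%, 3.68% and 9.88% of probe sets that were higher by that rule. All MEHP animals lay above all corn oil animals in 1, 2, 3, 2 and 2 of the 5 genes, beside 9.02%, 7.33%, 6.53%, 7.62% and 10.2% of probe sets. Their median differences were -0.12, 0.27, 1.27, 0.62 and 1.61, beside -0.03, -0.01, 0.01, 0.00 and -0.04 over all probe sets tested. Called at any time by the F test were Egr1, Egr4 and Nr4a1, 3 of 5, beside 4.71% of probe sets. The test of a difference between times in the MEHP effect called 0 of 5 (2.87% of probe sets), with 4 of 5 at an unadjusted p under 0.05, as in 16.3% of probe sets. The genes called at 12 h and not earlier are thus not shown to differ between the times. The times among corn oil animals also gave 0 of 5 in limma (0.033%), and 0 at an unadjusted p under 0.05 (20.7% of probe sets).

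At 12 h some markers of other cells were higher after MEHP as well. The summed signal of the neutrophil markers S100a8, S100a9 and Cxcr2 was 25.28 to 45.4 after corn oil and 7448, 377.8 and 737.2 in MEHP animals 57, 58 and 59; both tested markers rose, and Cxcr2 was below the filter with a mean of 15.4. The neutrophil genes Mpo and Elane had no probe set with 1 symbol. The 8 macrophage markers summed to 1515 to 1842 and to 9236, 2704 and 2192 in the same animals, with 1 of 8, Lyz2, past the threshold. Peritubular myoid markers summed to 2754 to 2887 and to 5840, 6039 and 4245 in these animals, with 4 of 5 that rose. The leading Nr4a3 probe set was highest in animal 57, as the neutrophil and macrophage sums were. Egr1, Egr2 and Nr4a1 were highest in animal 59 and lowest in animal 58, where the myoid sum was highest. Without animal 57 the differences for Egr1 at 12 h, Egr2 at 12 h and Nr4a1 at 12 h were 3.51, 2.71 and 2.07 (adjusted p = 5.62e-05, 0.00386 and 0.00661), and that for Nr4a3 at 12 h was 1.06 (adjusted p = 0.368). The part of these cells in the member signals was not tested. At 2 h the macrophage markers were lower after MEHP (1405 to 1541 against 1936 to 2390), and the neutrophil markers overlapped.

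Animals given the same dose differed, and for some members they differed together. Each MEHP animal was set against the MEHP mean of its time in log2(signal + 16), for the 15 pairs of 6 member genes, a comparison chosen after the values were seen. The Egr1 and Egr2 deviations of the 15 animals correlated with Pearson r = 0.921 (exact permutation within times, 7776 orders, 2-sided p = 0.00476, adjusted over 15 pairs 0.0357) and Spearman rho = 0.861 (permutation p = 0.00682, adjusted 0.102). Without animals 31 and 51, the farthest in Egr1, r was 0.851. Animal 31 of 6 h was lowest in both (-1.24 in Egr1 and -1.66 in Egr2), and animals 49 of 3 h, 33 of 6 h and 59 of 12 h were high in both. Within 1 h and within 2 h these genes did not move together. Animals 37 and 43, highest in Egr1 for those times (0.281 and 0.223), had -0.084 and -0.035 in Egr2. Of 21182 other tested probe sets 0.00472% had an r with Egr1 as high.

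Egr2 and Egr4 deviated together as well, with r = 0.759 (permutation p = 0.00244, adjusted 0.0357) and rho = 0.743 (permutation p = 0.0136, adjusted 0.102), and r = 0.899 without animals 31 and 33. Egr1 and Egr4 had r = 0.687 (permutation p = 0.0548, adjusted 0.206). Nr4a1 had r = 0.59 with Egr1 (permutation p = 0.177, adjusted 0.442), which fell to 0.34 without animals 31 and 51. Nr4a3 followed neither Egr1 (r = 0.016) nor Egr2 (r = -0.135), and with Nr4a1 it had r = 0.383 (permutation p = 0.151, adjusted 0.442). Egr1 with Egr2 and Egr2 with Egr4 thus had an adjusted permutation p under 0.05 by Pearson r, and 0 of the 15 pairs did by rank. Both of these pairs hold Egr2, which was tested through its MEHP arrays alone, and the comparison was chosen after the values were seen. Their p values are therefore given as a description.

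**Figure D4:**
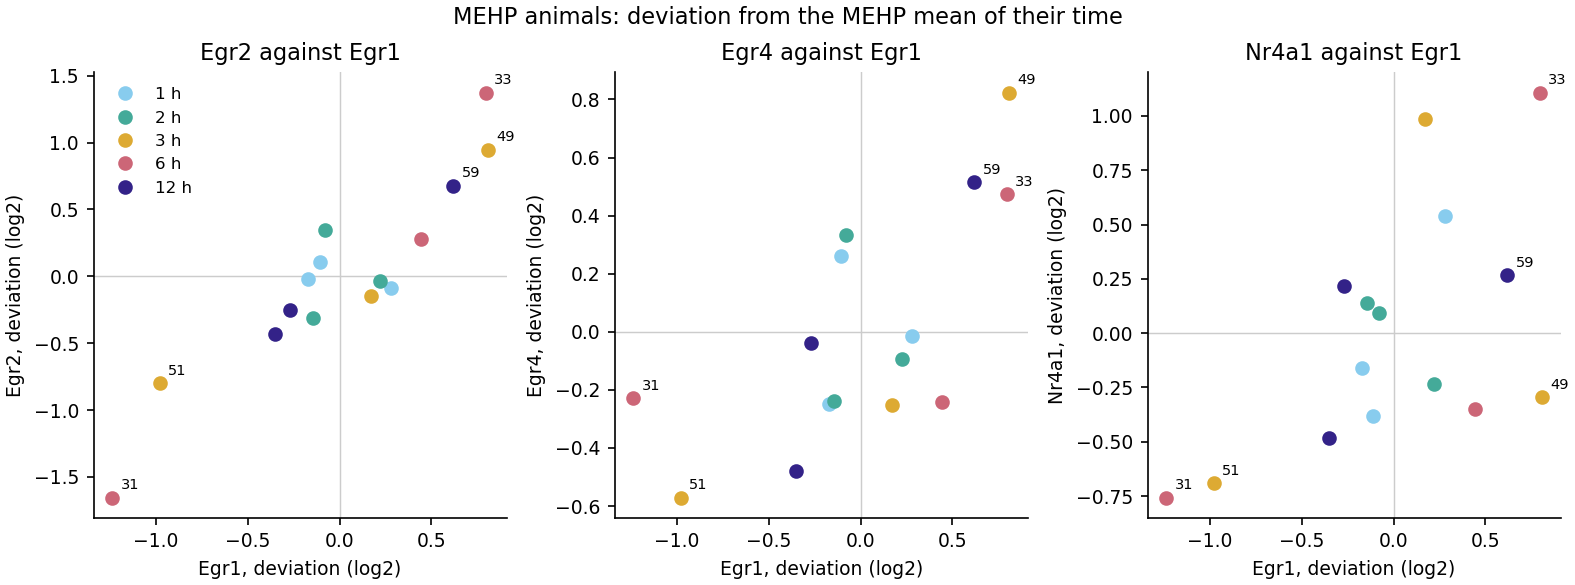
Deviation of each of the 15 MEHP animals from the MEHP mean of its time, in log2(signal + 16), for Egr2, Egr4 and Nr4a1 against Egr1, coloured by time, with 5 animals numbered. Across the 15 animals the r with Egr1 is 0.921 for Egr2, 0.687 for Egr4 and 0.59 for Nr4a1. Within 1 h and within 2 h Egr2 does not follow Egr1.

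Over all 30 arrays, which share the MEHP difference, the gene most like Egr1 among 11274 was Fos, its partner among immediate early factors, with r = 0.94. It was followed by Ier3 (0.897), Ccn1 (0.892), F3 (0.885) and Dusp5 (0.86). Egr2 was closest to Fos too (0.913), then F3 (0.849), Atf3 (0.836), Ier3 (0.835) and Mideas (0.823). For Nr4a1 they were Fos (0.849), F3 (0.841), Junb (0.828), Ier3 (0.808) and Il1a (0.804). For Egr4 they were Dusp5 (0.836), which Egr1 shares, Edn1 (0.823), Ptpn21 (0.812), Gramd2b (0.805) and Cnst (0.795). Among the members themselves, Egr1 had r = 0.855 with Egr2, 0.825 with Nr4a1, 0.678 with Egr4 and -0.083 with Egr3. These values describe likeness over arrays of the same groups and carry no test.

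Genes that act on the EGR and NR4A factors did not pass at the level of their RNA. The corepressors Nab1 and Nab2 had 0.84 ± 0.26 (adjusted p = 0.467) and 0.58 ± 0.20 (adjusted p = 0.477) at 3 h. All MEHP animals lay above all corn oil animals there, as in 6.53% of tested probe sets. At 12 h they had -0.01 (adjusted p = 0.99) and 0.37 (adjusted p = 0.311). The other tested probe set of Nab1 had -0.51 at 2 h (adjusted p = 0.21), 0.50 at 3 h (adjusted p = 0.477) and 0.445 at 12 h (adjusted p = 0.167). Of 17 upstream factors (SRF, its ternary complex and MRTF partners, and CREB) 16 were tested, and limma called 0 at every time, with 1, 0, 3, 2 and 1 at an unadjusted p under 0.05. Srf, which binds CArG boxes, had 0.30 ± 0.14 at 2 h (adjusted p = 0.358) and 0.43 at 6 h (adjusted p = 0.508, unadjusted p = 0.00644), and its other probe set had -0.01 at 6 h. Of 15 ERK cascade kinases 8 were tested and limma called 0 at any time, with 0, 0, 1, 0 and 1 at an unadjusted p under 0.05. Over all probe sets 0%, 0.222%, 0.0425%, 0.179% and 5.06% were called higher and 0%, 0.439%, 0%, 0.0236% and 3.68% lower. At an unadjusted p under 0.05, a share taken for higher ones only, they were 1.08%, 5.91%, 7.34%, 3.68% and 9.88%. Counts of 0 called are near these shares and are no result about these lists. Activation of these proteins, which is by phosphorylation, was not measured.

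Known EGR1 target genes, 16 tested of 23, had median differences of -0.02, -0.16, 0.16, 0.04 and 0.87 at the 5 times. At 2 h F3, which encodes tissue factor, the trigger of clotting, rose by 0.68 ± 0.11 (adjusted p = 0.00509) and was the 1 target of 16 called, beside 0.222% of probe sets. That call ended with the spike level as a covariate (0.73, adjusted p = 0.0578) and in separate fits (adjusted p = 0.297). At 1, 3 and 6 h limma called 0, with 1, 4 and 5 at an unadjusted p under 0.05 in either direction. The share of all probe sets by that rule was taken for higher ones only (1.08%, 7.34% and 3.68%). Those of 6 h were Pdgfa, F3, Gadd45a and Gadd45b, which were higher, and Vegfa, which was lower (-0.74). At 12 h 10 of 16 rose and 0 fell, beside a median of -0.04 over all probe sets and 5.06% of those called higher. The largest were Icam1, an adhesion molecule for leukocytes (3.29 ± 0.40, adjusted p = 4.5e-06), the stress gene Gadd45b (2.49 ± 0.27), Myc (2.41 ± 0.34) and the cell cycle inhibitor Cdkn1a (1.62 ± 0.17). Pdgfa (1.34), Ptges (0.99), F3 (0.91), Vegfa (0.82), Id3 (0.77) and Gadd45a (0.44) also passed. The calls of Vegfa and Ptges were lost without corn oil animal 60, 61 or 62 or MEHP animal 57, that of Id3 without MEHP animal 57, and that of Gadd45a in 24 of 30 omissions. Without animal 57 the Vegfa difference was 0.45 and that of Ptges 0.42. Other tested probe sets gave 0.57 (adjusted p = 0.247) for Ptges and 0.54 (adjusted p = 0.292) for Vegfa. These genes answer to many other factors, and the summed neutrophil and macrophage markers given above were higher in the same animals. Their part in these results was not tested.

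Some genes that share targets with the NR4A receptors fell at 12 h. Of 9 partners and rivals 5 were tested, and 3 fell, where 3.68% of probe sets were called lower. These were Nr0b1, also called DAX1, a repressor of steroid production (-1.37 ± 0.23, adjusted p = 0.000209), Nr2f2, a nuclear receptor of Leydig cell precursors and adult Leydig cells (-1.01 ± 0.14, adjusted p = 1.94e-05), and Nr5a1, also called SF1, the main activator of steroid enzymes (-0.70 ± 0.17, adjusted p = 0.00966). The Nr5a1 call was lost without MEHP animal 57, and the Nr0b1 difference was then -0.89 and still called. The other probe sets of Nr2f2 and Nr5a1 gave -0.84 (adjusted p = 0.111) and -0.34 (adjusted p = 0.516).

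NR4A target genes of steroid making cells, 8 tested of 9, had a median of -1.17 at 12 h, beside -0.04 over all probe sets, with 4 that fell and 1 that rose, where 3.68% of probe sets were called lower and 5.06% higher. Cyp17a1, the enzyme that turns progestins into androgens, fell by 3.37 ± 0.55 (adjusted p = 0.000154), with MEHP signals of 113, 2343 and 575 in animals 57, 58 and 59. Cyp11a1, which starts steroid synthesis from cholesterol, had -1.78 ± 0.36 (adjusted p = 0.00174), Hsd3b1 -1.32 ± 0.18 (adjusted p = 2.39e-05) and the cholesterol receptor Scarb1 -1.02 (adjusted p = 0.0203). The Scarb1 call was lost without corn oil animal 60 or 62 or MEHP animal 59. Star, which carries cholesterol into mitochondria and is a known target of Nr4a1, fell at 6 h (-1.82 ± 0.38, adjusted p = 0.0408, 0.0236% of probe sets called lower) and rose at 12 h (1.38 ± 0.38, adjusted p = 0.0218). Its change between these effects was 3.21 (adjusted p = 0.00319, a test that 1.5% of probe sets passed). Its 6 h call was lost in 13 of 30 omissions and under 8 of 12 other settings, and against all 15 corn oil animals the 6 h difference was -0.38 (adjusted p = 0.871). Its 12 h call was lost in 3 omissions, in separate fits (adjusted p = 0.119) and against all 15 corn oil animals (0.73, adjusted p = 0.0952). Its other probe set had -1.62 (adjusted p = 0.0714) and 0.49 (adjusted p = 0.518). Among 11 genes of luteinizing hormone and cyclic AMP signalling 1 was called at 12 h, the hormone's receptor Lhcgr, which fell by 1.11 ± 0.24 (adjusted p = 0.00342), and by 0.67 without MEHP animal 57. With 3.68% of probe sets called lower and 5.06% higher, 1 of 11 is near the background and is no result about that list. Fits made separately for each time ended the 12 h calls of Cyp11a1, Cyp17a1, Hsd3b1, Scarb1, Lhcgr, Nr0b1, Nr5a1, Pdgfa, Ptges, Vegfa, Id3 and Gadd45a, with adjusted p from 0.0569 to 0.423. The 6 Leydig markers, all of which are in these lists, summed to 12920 to 16470 after corn oil at 12 h and to 2892, 8637 and 3817 in MEHP animals 57, 58 and 59.

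**Figure D5:**
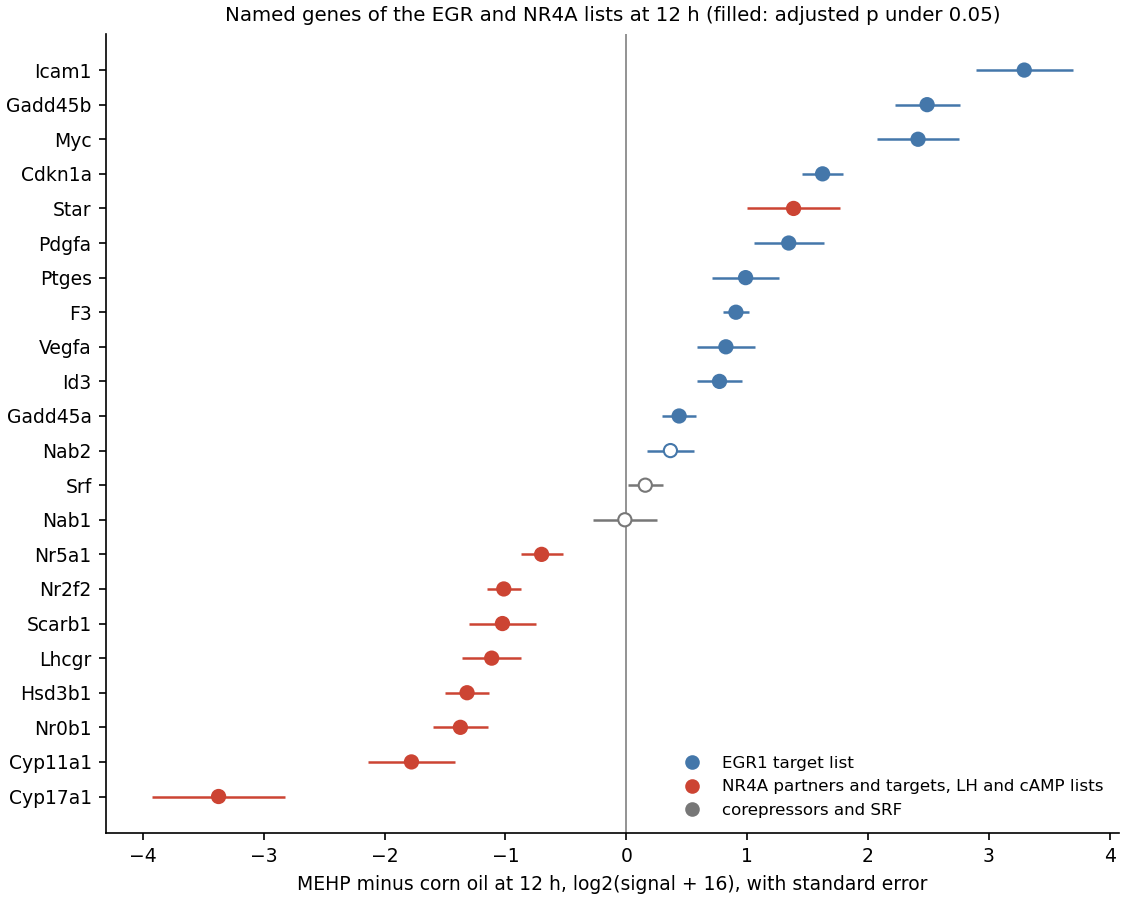
Difference between MEHP and corn oil at 12 h in log2(signal + 16), with its standard error, for the named genes of the EGR and NR4A lists; filled points have an adjusted p under 0.05. Only list genes called at some time are shown, with Nab1, Nab2, Srf, Lhcgr and Star. Of these, EGR1 targets (blue, with Nab2, which is also a corepressor) lie to the right of 0. Genes of the NR4A and luteinizing hormone lists (red) lie to the left except Star at 1.38. Among all tested genes at 12 h, 2 of 16 EGR1 targets were lower. Higher were 3 of 8 NR4A targets, 0 of 5 partners and rivals and 4 of 11 luteinizing hormone and cyclic AMP genes.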

How the data were processed

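Total RNA of rat testis, extracted with Trizol and purified on RNeasy columns per the labels' protocols, was hybridised to Affymetrix Rat230_2 arrays, 1 per animal. The deposited values are a linear intensity per probe set, scaled by the authors before deposit; the submitters' processing notes name GCOS 1.0, and the summary method is not given in the sources used here. Probe sets were named from the platform annotation, 20826 of 31042 with 1 symbol, 436 with several and 9780 with none, and the 57 controls were not tested.

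Signals were tested as log2(signal + 16), a scale that understates the change of dim probe sets, in limma 3.58.1 (R 4.3.3) with a mean for each of 10 groups, 20 residual degrees of freedom and a trend in the prior. The model was tested on simulated data. The precision is limited by 3 animals per group. Named genes were all members, the list genes past the threshold at any time together with Nab1, Nab2, Srf, Lhcgr and Star, and the 5 genes most correlated with each called member. The members and lists were chosen with earlier results of these data known, and the counts without Egr2 were added after its values were seen. Alternatives were 2 other pseudocounts, 2 other filters, quantile normalization, separate fits per time, no trend, array weights, spike, volume and RNA integrity covariates, pooled controls and each animal left out.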

Additional observations from a re-analysis of the deposited data

Results flagged for a closer look

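For the members of both families the test of a difference between times in the MEHP effect did not pass, and no animal of a group of 3 was tested as an outlier. Genes of the accompanying lists had effects that differed between times by the limma F test. Among EGR1 targets these were Cdkn1a (adjusted p = 0.000618), Gadd45b (adjusted p = 0.000648), Icam1 (adjusted p = 0.00317), Myc (adjusted p = 0.0131), Id3 (adjusted p = 0.0388) and F3 (adjusted p = 0.0493). Among NR4A partners and steroid genes they were Star (adjusted p = 0.00379), Nr2f2 (adjusted p = 0.0153), Nr0b1 (adjusted p = 0.0169), Hsd3b1 (adjusted p = 0.0181), Cyp17a1 (adjusted p = 0.0217) and Cyp11a1 (adjusted p = 0.0488). All MEHP animals lay above the corn oil animals at 1 time and below them at an earlier time in some named list genes. Of those given above, this held for Gadd45b (below at 2 h, above at 6 h and 12 h) and Star (above at 2 h, below at 6 h, above at 12 h). It also held for Nr0b1 (below at 2 h, above at 3 h and 6 h, below at 12 h). Some of these differences were small and not called, with -0.20 for Gadd45b at 2 h and -0.16, 0.26 and 0.15 for Nr0b1 at 2, 3 and 6 h. From 6.53% to 10.2% of tested probe sets had all MEHP animals above at a given time, and the share with both patterns was not counted. Among named list genes that the F test did not call, 3 had this pattern. For Gadd45a the times were 6 h and 2 h, for Vegfa 12 h and 6 h, and for Ptges 12 h and both 1 h and 2 h, with log2 differences at the earlier time (1 h for Ptges) of -0.39, -0.74 and -0.37. The F test of the time difference gave adjusted p = 0.0602, 0.0755 and 0.103 for these 3 genes. For Vegfa the change between the 6 h and 12 h effects passed by itself (1.57, adjusted p = 0.0176), and for Gadd45a and Ptges the difference between those times alone was not tested.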

How the results depend on the processing

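No paired analysis was possible because each animal number occurs in 1 group only. Of the 7 gene and time results called, 77 of 83 values under 12 other settings kept direction and call, and 6 lost the call. None reversed. Egr2 at 12 h, whose test is a description only, is among the 7. Egr1 at 2 h was 3.32 (adjusted p = 0.0502) with the spike covariate, at 3 h 2.47 (adjusted p = 0.71) in separate fits and 2.28 (adjusted p = 0.0754) with the volume covariate, and at 6 h 2.82 (adjusted p = 0.251) in separate fits. With 1 animal left out Egr1 at 3 h ran from 2.06 to 2.96. Array weights, whose estimation stopped before it converged, called 7798 probe sets at 2 h beside 140. The number of member genes called at 2 h, 1, was 3 with array weights, 0 with the spike covariate and 2 with pooled controls; at 3 h, 1, it was 0 in separate fits, 3 with array weights and 0 with the volume covariate; at 6 h, 2, it was 0 in separate fits and 1 with RNA integrity; at 12 h, 3, it was 5 with array weights. The omissions gave 1 to 2, 0 to 1, 1 to 3 and 3 to 4 at these times. Differences in effect between times called 5 with array weights and 0 to 1 in omissions, beside 0, and corn oil times 2 with array weights. MEHP times, 1, became 2 with a pseudocount of 64, 0 with the stricter filter, 5 with array weights, 5 with volume, 0 with RNA integrity and 1 to 4 in omissions. Among results not called, 8 of 267 values under other settings turned sign: Egr2 at 3 h (-0.061, array weights), Egr3 at 6 h (-0.023 quantile, -0.12 array weights, -0.076 spike, -0.053 pooled controls), Egr3 at 12 h (-0.01, array weights), Egr4 at 1 h (0.11, volume) and Nr4a3 at 6 h (0.023, pooled controls). Omissions turned Egr2 at 3 h (-0.045 to 0.83), Egr3 at 2 h (-0.45 to 0.27), Egr3 at 6 h (-0.15 to 0.16), Egr4 at 1 h (-0.25 to 0.006), Nr4a1 at 1 h (-0.15 to 0.31) and Nr4a3 at 1 h (-0.68 to 0.18). The cause was not tested. For Nr4a2 only the fit without a filter gave a value. Signals of Egr2, Egr3, Nr4a2 and Nr4a3 near or under the filter limit how small a change could be seen.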
